A study of Mus musculus with 4 samples.

Results

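The Hox cluster genes were described here: the 39 mouse genes named Hoxa, Hoxb, Hoxc or Hoxd with a number, which lie in 4 clusters, Hoxa on chromosome 6, Hoxb on chromosome 11, Hoxc on chromosome 15 and Hoxd on chromosome 2. They were chosen by symbol alone. Probes were matched by transcript accession to RefSeq (GRCm38.p6), and all 39 Hox genes of that annotation were present, with 44 probes among 21154 named genes. Expression was measured on 4 one-colour Agilent microarrays on 1 slide. The material was sorted bone marrow LSK cells (Lineage-, c-Kit+, Sca-1+, the fraction that holds stem cells and multipotent progenitors) and MEP cells (megakaryocyte/erythroid progenitors) from mice on the C57BL/6 background. All groups carried the JAK2 V617F mutation, an activating change that drives myeloproliferative neoplasms, and a deletion of Ezh2, the methyltransferase of Polycomb repressive complex 2, in marrow of the genotype JAK2V617F;Ezh2flox/flox;Cre-ERT2 grown in wild-type CD45.1+ recipients that had been lethally irradiated before the transplant. The groups differed only in the sorted cell and in the agent given for 2 weeks after the deletion: JQ1, which blocks the bromodomains by which BET proteins read acetylated histones, or its solvent control DMSO. Groups with intact Ezh2 or wild-type JAK2 were not analysed here, so values below compare JQ1 with DMSO, or MEP with LSK, within the mutant, Ezh2-deleted marrow. The ages of the mice and the number of mice behind each array are not given in the sources used here.

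Hox genes encode homeodomain transcription factors that set position along the body axis in the embryo, and genes at the 3′ end of a cluster (low paralogue numbers) are switched on earlier and more anteriorly than those at the 5′ end. In blood, genes of the Hoxa and Hoxb clusters are active in stem and progenitor cells and are turned down as cells mature. Hoxa9, with its partner Meis1, is a driver of myeloid leukaemia when its expression persists, and Hoxb4 is known for expanding stem cells in culture. MLL-family methyltransferases keep Hox genes active, and Polycomb repressive complexes keep them silent.

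The promoters of 4 genes on which the results turn are shown first, because the array order described below was shared by Hoxa3, Hoxa9 and Hoxa10 whereas Hoxb8 was seen above background on a single array. Each sequence is the 250 bases before the RefSeq transcription start, read 5′ to 3′ on the strand of the gene (GRCm38.p6). Hoxa3 lies at chr6:52213068-52213317, Hoxa9 at chr6:52227371-52227620 and Hoxa10 at chr6:52240855-52241104, all on the minus strand, and Hoxb8 at chr11:96281655-96281904 on the plus strand. For Hoxa10, the start farther upstream is shown. Capitals mark matches, on either strand, to a TATA box, a CCAAT box, a PBX-HOX site, a MEIS site or a GC box, whose letters are given after the sequences; no overlap between different motifs occurs in these 4 windows.
Hoxa3: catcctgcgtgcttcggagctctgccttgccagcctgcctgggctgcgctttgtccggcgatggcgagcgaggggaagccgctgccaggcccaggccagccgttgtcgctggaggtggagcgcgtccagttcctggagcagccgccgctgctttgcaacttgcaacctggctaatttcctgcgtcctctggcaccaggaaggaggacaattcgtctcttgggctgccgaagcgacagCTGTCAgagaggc
Hoxa9: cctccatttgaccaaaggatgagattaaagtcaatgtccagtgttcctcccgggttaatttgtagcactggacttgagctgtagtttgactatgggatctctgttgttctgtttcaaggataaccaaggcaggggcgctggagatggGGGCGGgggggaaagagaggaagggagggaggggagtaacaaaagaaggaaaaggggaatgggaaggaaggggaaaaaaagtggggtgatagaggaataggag
Hoxa10: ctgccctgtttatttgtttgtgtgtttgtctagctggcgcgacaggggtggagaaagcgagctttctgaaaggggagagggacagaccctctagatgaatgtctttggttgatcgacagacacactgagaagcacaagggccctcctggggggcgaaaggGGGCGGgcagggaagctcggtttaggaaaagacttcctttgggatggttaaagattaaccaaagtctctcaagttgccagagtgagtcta
Hoxb8: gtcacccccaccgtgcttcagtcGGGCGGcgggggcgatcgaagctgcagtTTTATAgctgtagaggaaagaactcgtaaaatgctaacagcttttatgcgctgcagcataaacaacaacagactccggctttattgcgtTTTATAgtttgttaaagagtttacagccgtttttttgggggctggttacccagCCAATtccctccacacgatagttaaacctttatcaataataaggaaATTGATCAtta

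Among these 4 windows, the Hoxb8 promoter held the most matches: 2 TATA boxes, 1 CCAAT box, 1 PBX-HOX site and 1 GC box. A single MEIS site was found in the Hoxa3 window, close to its 3′ end, and a single GC box in each of the Hoxa9 and Hoxa10 windows. RefSeq promoters were found for 22 of the 39 genes (24 windows). The CCAAT box, spelled by its name, occurred in 14 of these 24 windows (58.3%), against 33.8% of the 32851 promoters of the same length in the table. The PBX-HOX letters TGATNNAT, a composite site for both protein families, occurred in 4 of 24 (16.7%, against 7.68% of all). The letters TGACAG, bound by MEIS proteins, occurred in 2 of 24 windows (8.33%, against 15.9%). TATAAA was present in 4 of the Hox windows (16.7%, against 12.4%). The GC box was searched as GGGCGG and present in 10 of them (41.7%, against 32.7%). Hox windows were richer in CpG than most, with a median observed-to-expected CpG ratio of 0.72 against 0.37 over all promoters and a median GC content of 58.6% against 52.4%. The CpG ratio was 0.69 for the 11 windows of genes above background in these cells and 0.75 for the 13 windows of genes that were not. A match is a description of letters and not evidence of binding.

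Depth of signal was greatest on DMSO MEP, where 53.2% of 55681 probes were well above background, against 45.2% to 47.4% elsewhere. The 75th percentile signal was 327 on DMSO MEP and 210 to 245 elsewhere. Each group had 1 array, so no difference below has a replicate check and none was tested; what is given is the size of a difference between 2 arrays. The DMSO MEP array stood apart: it correlated at 0.973 to 0.976 with the other arrays, which correlated with each other at 0.979 to 0.991. Markers of the 2 cell types mostly, but not all, differed the way the labels read. Ly6a, the Sca-1 gene, was lower in MEP than in LSK with log2 differences of -4.58 (DMSO) and -4.13 (JQ1), and 11 of 12 measured erythroid and megakaryocytic genes were at least 2-fold higher in MEP in both comparisons, among them Klf1 (3.79 and 4.74) and Gata1 (2.61 and 3.55). The exception was the haemoglobin gene Hbb-bt, which was lower in MEP, at -1.45 (DMSO) and -0.80 (JQ1). Of all genes measured, 5.68% under DMSO and 3.94% under JQ1 were at least 2-fold higher in MEP. At least 2-fold lower were 4.32% and 4.01%. Of the LSK markers, 4 of 12 were at least 2-fold lower and 1 higher in MEP under DMSO, and 6 of 11 lower and 1 higher under JQ1. The higher one was Slamf1, a stem cell surface receptor, at 2.35 and 1.18, and the stem cell gene Mecom was at 0.87 under DMSO.

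Detection followed cluster and position. Detected Hox genes lay almost entirely in the Hoxa and Hoxb clusters, and mostly in the 3′ and middle parts of them. In all, 18 of the 39 genes (46.2%) were well above background on at least 1 array, compared with 68.6% of all named genes, and 9 were above it on all 4. The mark "well above background" is set by the scanner software for each spot. By cluster, 9 of 11 Hoxa, 7 of 10 Hoxb, 2 of 9 Hoxc and 0 of 9 Hoxd genes were detected. By position, 8 of 12 genes of paralogue groups 1 to 4, 8 of 11 of groups 5 to 8 and 2 of 16 of groups 9 to 13 were detected, and the 2 posterior genes were Hoxa9 and Hoxa10.

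**Figure D1:**
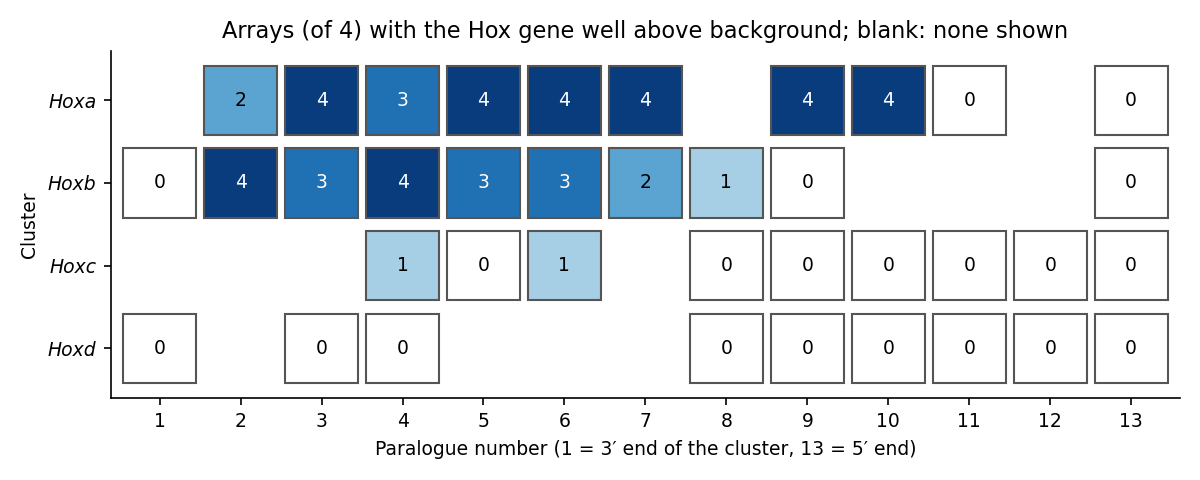
Each square is 1 Hox gene whose values are reported, placed by cluster (rows) and paralogue number (columns, 3′ to 5′), and its number and shade give on how many of the 4 arrays the gene was well above background. Filled squares lie in Hoxa and Hoxb up to Hoxa10 and Hoxb8, with single-array squares at Hoxc4 and Hoxc6 and none in Hoxd.

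The 21 undetected genes were Hoxa11, Hoxa13, Hoxb1, Hoxb9, Hoxb13, Hoxc5, Hoxc8, Hoxc9, Hoxc10, Hoxc11, Hoxc12, Hoxc13 and all 9 Hoxd genes. Their signals ran from 3.53 to 21.8 scanner units, with a median of 4.62, while the dimmest signals marked as well above background were 17.2 to 20.1 on the 4 arrays. Absence cannot be read from this: a transcript below the array's detection limit looks the same as none, and most Hox genes had a single probe. With the looser mark "positive and significant", 25 of 39 genes passed, adding Hoxa13, Hoxb9, Hoxc5, Hoxc10, Hoxc12, Hoxd9 and Hoxd11, when 85.5% of all genes passed.

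The number of Hox genes above background was 15 with DMSO and 14 with JQ1 in LSK, and 16 with DMSO and 10 with JQ1 in MEP, where the shares of all genes were 60.2%, 61.4%, 65% and 60.6% in turn. The middle Hoxb genes, Hoxb5 to Hoxb8, account for much of that spread: 4 were above background with DMSO and 2 with JQ1 in LSK, and 3 with DMSO and 0 with JQ1 in MEP. In bulk samples of this kind, fewer cells of a type and less RNA per cell cannot be told apart. The genes detected on JQ1 MEP included Hoxa3, Hoxa4, Hoxa5, Hoxa6, Hoxa7, Hoxa9, Hoxa10, Hoxb2 and Hoxb4.

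Genes detected on every array are given first, as log2 levels relative to the median of the genes detected on all 4 arrays, which makes arrays comparable for 1 gene; levels of different probes were not set against each other. Hoxa7, a middle Hoxa gene, stood at 1.52 with DMSO and 1.78 with JQ1 in LSK, and at 1.15 with DMSO and 0.85 with JQ1 in MEP. Hoxb4, the stem cell regulator, read -0.85, -0.58, -0.68 and -0.93 on the same arrays. Both were highest on JQ1 LSK and lowest on JQ1 MEP.

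Hoxa9 stood at -2.58 with DMSO and -2.23 with JQ1 in LSK, and at -2.72 with DMSO and -3.27 with JQ1 in MEP. Its 5′ neighbour Hoxa10, also known for a role in progenitor expansion and leukaemia, read -1.75, -1.39, -1.82 and -2.50. The same arrays were extreme for both genes, JQ1 LSK at the top and JQ1 MEP at the bottom, with the DMSO arrays between them. Hoxa9 has a second probe, whose scanner signals of 71.4, 176, 154 and 74.0 can be set beside 110, 171, 140 and 82.0 for the first. On both probes the JQ1 LSK signal was above that of DMSO LSK and the JQ1 MEP signal below that of DMSO MEP, by differing amounts.

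Among the anterior genes, Hoxa3 stood at -2.51 with DMSO and -2.05 with JQ1 in LSK, and at -2.44 with DMSO and -3.40 with JQ1 in MEP. Hoxb2, a retinoic-acid-responsive anterior gene, read -2.15, -1.92, -2.27 and -2.96. Hoxa5 read -3.80, -3.61, -3.70 and -4.30. All 3 repeat the extremes seen for Hoxa9, with JQ1 LSK highest and JQ1 MEP set apart below the other arrays.

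Hoxa6 took another order. It read -4.27, -4.96, -4.69 and -4.91 and was highest on DMSO LSK; its signals of 25.6 to 35.5 lay just above the detection limit.

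**Figure D2:**
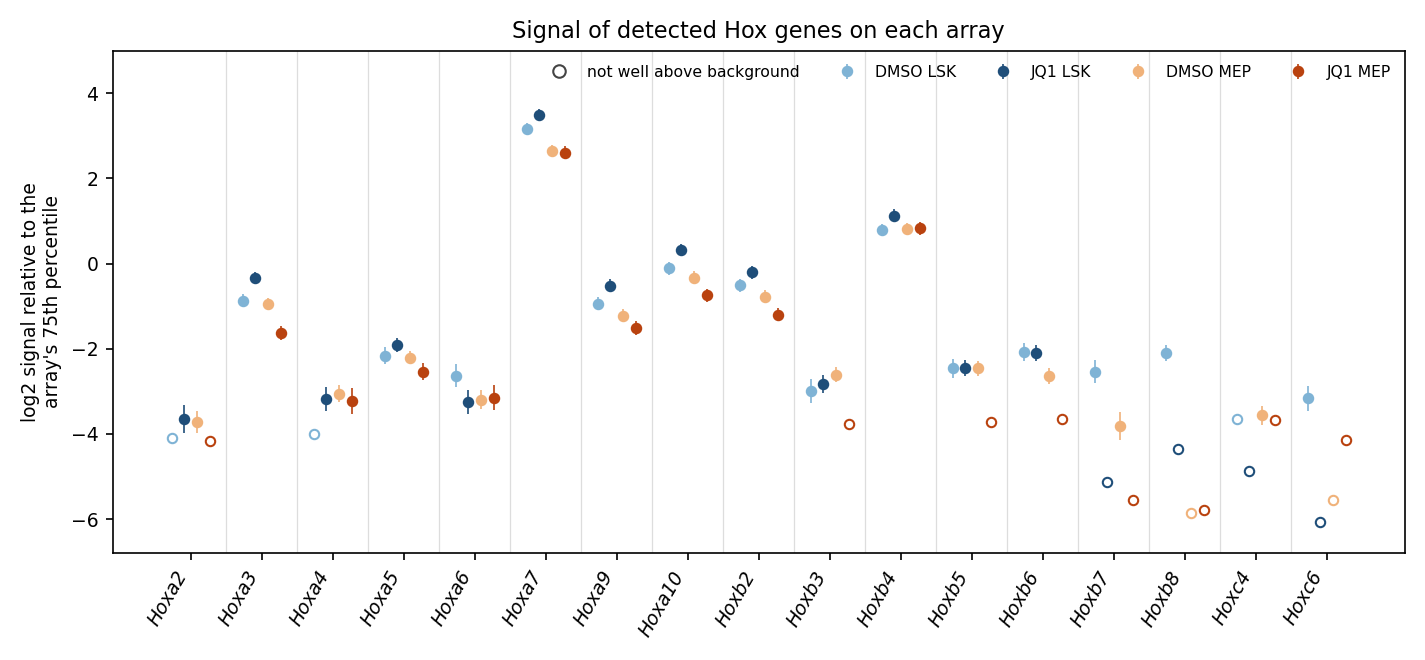
Log2 signal relative to the array's 75th percentile (vertical axis) for the detected Hox genes that are reported (horizontal axis), with 1 point per array and bars for the scanner software's error; open points were not well above background. JQ1 LSK is the highest point for genes such as Hoxa3, Hoxa9, Hoxa10 and Hoxb2, and the points of Hoxb7 are open on 2 arrays and those of Hoxb8 on 3.

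Another 9 genes crossed the detection limit between arrays, so their scanner signals are given, first LSK and then MEP, with DMSO before JQ1 in each. Hoxa4 read 13.2, 27, 39.3 and 25 and was not well above background on the first of these. Hoxa2 read 12.3, 19.5, 24.6 and 13 and was above background on JQ1 LSK and DMSO MEP. Hoxa2 thus stayed close to the limit of 17.2 to 20.1 on every array.

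Hoxb3 read 26.4, 34.6, 53.6 and 17.0, Hoxb5 read 38.1, 44.8, 59.3 and 17.8, and Hoxb6 read 49.7, 56.9, 52.2 and 18.5. These 3 genes lie side by side with Hoxb4 in the middle of the cluster, and each was above background on the first 3 arrays and not on JQ1 MEP. Hoxb7 read 36.3, 6.99, 23.2 and 4.97 and was above background on both DMSO arrays and on neither JQ1 array. Hoxb8, whose forced expression keeps myeloid progenitors immature, read 49.0, 12.0, 5.59 and 4.25 and was above background on DMSO LSK alone. In the Hoxc cluster, Hoxc4 read 16.8, 8.38, 27.6 and 18.3 (above background on DMSO MEP only) and Hoxc6 read 23.5, 3.64, 6.95 and 13.1 (above background on DMSO LSK only).

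JQ1 was first compared with DMSO in LSK cells, the question being whether BET inhibition altered Hox transcripts in the stem cell compartment. On the brightest probe of each gene, no measured Hox gene differed by 2-fold. Of the 12 genes above background on both arrays, 9 lay above the median gene and 3 below, with a median of 0.22 on the log2 scale (0.068 under normexp, a background correction that adds an offset and shrinks low signals). These differences are relative to the median of the 12328 genes measured, which was itself 0.06 higher with JQ1; over all genes 0.543% were at least 2-fold higher and 3.22% at least 2-fold lower. By construction 50% of genes lie on each side of the median; among genes dimmer than the 75th percentile, as 10 of the 12 Hox genes were, 39.3% lay above it and 60.7% below, 1.58% were 2-fold higher and 7.24% 2-fold lower.

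Hoxa3 was 1.39-fold higher with JQ1 in LSK (log2 0.47 ± 0.21, software error). Hoxa10 and Hoxa9 were both 1.28-fold higher (0.36 ± 0.21 each), Hoxb4 1.21-fold (0.28 ± 0.21), Hoxa7 1.2-fold (0.27 ± 0.20), Hoxb2 1.18-fold (0.24 ± 0.21) and Hoxa5 1.15-fold (0.20 ± 0.25). The software error describes the reading of a spot and does not cover mice, sorts or labelling. As another measure of array error, different probes of the same gene gave differences with an SD of 0.35 in this comparison, and 0.53 for dim genes; of the 9 positive values only those of Hoxa3, Hoxa10 and Hoxa9 reached 0.35 and none reached 0.53. The second Hoxa9 probe gave 1.02, past 2-fold and past both SD figures.

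Hoxb3 (0.11), Hoxb5 (-0.05) and Hoxb6 (-0.09) differed by less than their software errors of 0.28 to 0.35, and the sign of each of these turned under another scaling. Hoxa6 was 1.61-fold lower (-0.69 ± 0.39), which came to -0.24 under normexp. For genes detected on only 1 of the arrays, a bound was set by taking the higher of the gene's own reading and the lowest signal detected on the dim array. Such bounds, here and below, are approximate, because that lowest signal is not the limit of each probe. On JQ1 MEP it was 18.6, while Hoxc12 read 21.8 there without being marked. The error of the spots is also left out, so "at least" holds only under this rule. Hoxb8 was at least 3.40-fold and Hoxb7 at least 2.52-fold lower with JQ1; of the 1045 genes detected on 1 LSK array only, 27.8% had such a bound of 2-fold or more. The bound for Hoxc6 was at least 1.63-fold lower and that for Hoxa4 at least 1.1-fold higher, and Hoxa2 gave none. After normexp the bounds of Hoxb8 and Hoxb7 came to log2 -0.57 and -0.72, below 2-fold.

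Transcripts of other cells moved in the same comparison. All 9 measured B lineage markers were at least 2-fold lower with JQ1 (median -2.46), their summed level going from 266 to 56.5 times the array's 75th percentile, with Pax5 not above background on any array. Summed myeloid markers went from 2113 to 1370, although single genes went both ways: of 10 measured, 2 were at least 2-fold higher with JQ1, the neutrophil granule gene Camp (1.91) and S100a9 (1.47), and 3 at least 2-fold lower. The summed LSK markers went from 288 to 368, with Hlf (1.18) and Mecom (1.03), both stem cell genes, at least 2-fold higher. Stromal and endothelial markers summed to 53.1 and 43.4. Of 14 listed, 8 were measured and 5 of these lay above the median gene, from Pdgfrb (0.94) and Sparc (0.86) down to Kdr and Lepr (-0.55 each), with Cxcl12 detected on JQ1 LSK but not DMSO LSK and Pdgfra, Cdh5 and Prrx1 not above background on any array. Of 8 measured T and NK markers, 3 were at least 2-fold lower (median -0.64), with 7 below the median gene and 1 above. All 8 mast and basophil markers lay below it (median -0.47), none by 2-fold. Of 12 measured MEP markers, 3 were at least 2-fold lower, with 9 below the median gene and 3 above. Among myeloid markers, 1 gene that was not measured had a bound of 2-fold or more higher. The part of these cells in the Hox values was not tested.

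JQ1 was then compared with DMSO in MEP cells, where Hox levels were lower with JQ1. Of 10 genes measured, 9 lay below the median gene, with a median of -0.56, and 1 was at least 2-fold lower. The Hox median depended on the scaling: it was -0.37 under normexp, -0.25 under quantile normalization and -0.23 without centring, and 7 genes in place of 9 were negative under the last 2 of these. The median of the 12549 genes measured was 0.34 higher with JQ1 before centring; after it, 5.77% of genes were at least 2-fold lower and 0.98% at least 2-fold higher. Dim genes leaned the same way: 65.5% of them lay below the median and 34.5% above, 11.7% were at least 2-fold lower and 2.18% higher. Against that background 9 of 10 below the median is a larger share, and 1 of 10 called is not a larger share than that of dim genes. The 7 of 10 under quantile normalization or without centring lies near the 65.5% of dim genes. That share was not computed under those scalings.

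The called gene was Hoxa3, 2.03-fold lower (-1.02 ± 0.22), a value just past the threshold. The nearest below it were Hoxb2, 1.69-fold lower (-0.76 ± 0.22), Hoxa10, 1.68-fold (-0.74 ± 0.21), Hoxa5, 1.59-fold (-0.67 ± 0.26) and Hoxa9, 1.54-fold (-0.62 ± 0.22; second probe -0.91). Probes of the same gene differed with an SD of 0.51 here, 0.62 for dim genes. Hoxa3, Hoxb2, Hoxa10 and Hoxa5 exceeded both figures, and Hoxa9 the first. Without centring Hoxa3 alone did (-0.68), with Hoxb2 at -0.42, Hoxa10 at -0.41, Hoxa5 at -0.33 and Hoxa9 at -0.28. Under quantile normalization it was again Hoxa3 (-0.66), with the others at -0.45, -0.49, -0.20 and -0.26. Under normexp none of these genes exceeded both figures, with Hoxa3 at -0.58 and the others at -0.42, -0.46, -0.25 and -0.40.

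Smaller differences were read for Hoxa4 (-0.51 ± 0.36), Hoxa7 (-0.37 ± 0.20), Hoxb4 (-0.32 ± 0.20) and Hoxa6 (-0.28 ± 0.37); the sign turned without centring for Hoxb4 (0.02) and Hoxa6 (0.05) and under quantile normalization for Hoxa4 (0.06) and Hoxa6 (0.30). Neighbouring Hoxb genes dropped below detection on JQ1 MEP, with bounds of at least 2.87-fold (Hoxb5), 2.59-fold (Hoxb3) and 2.53-fold (Hoxb6) lower; 24.7% of the 1427 genes detected on 1 MEP array only had a bound of that kind. Hoxc4, Hoxa2 and Hoxb7 gave bounds of at least 1.33-, 1.19- and 1.12-fold lower, and those of Hoxa2 and Hoxb7 exist only after centring. Under normexp the bounds of Hoxb5, Hoxb3 and Hoxb6 were log2 -0.49, -0.50 and -0.39, and under quantile normalization -0.98, -0.83 and -0.79, all short of 2-fold. The bound of Hoxb3 was -0.58 with the mean over probes and that of Hoxb6 -0.999 without centring, which leaves 2 bounds of 2-fold in each case. This comparison rests on the DMSO MEP array, which stood apart.

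**Figure D3:**
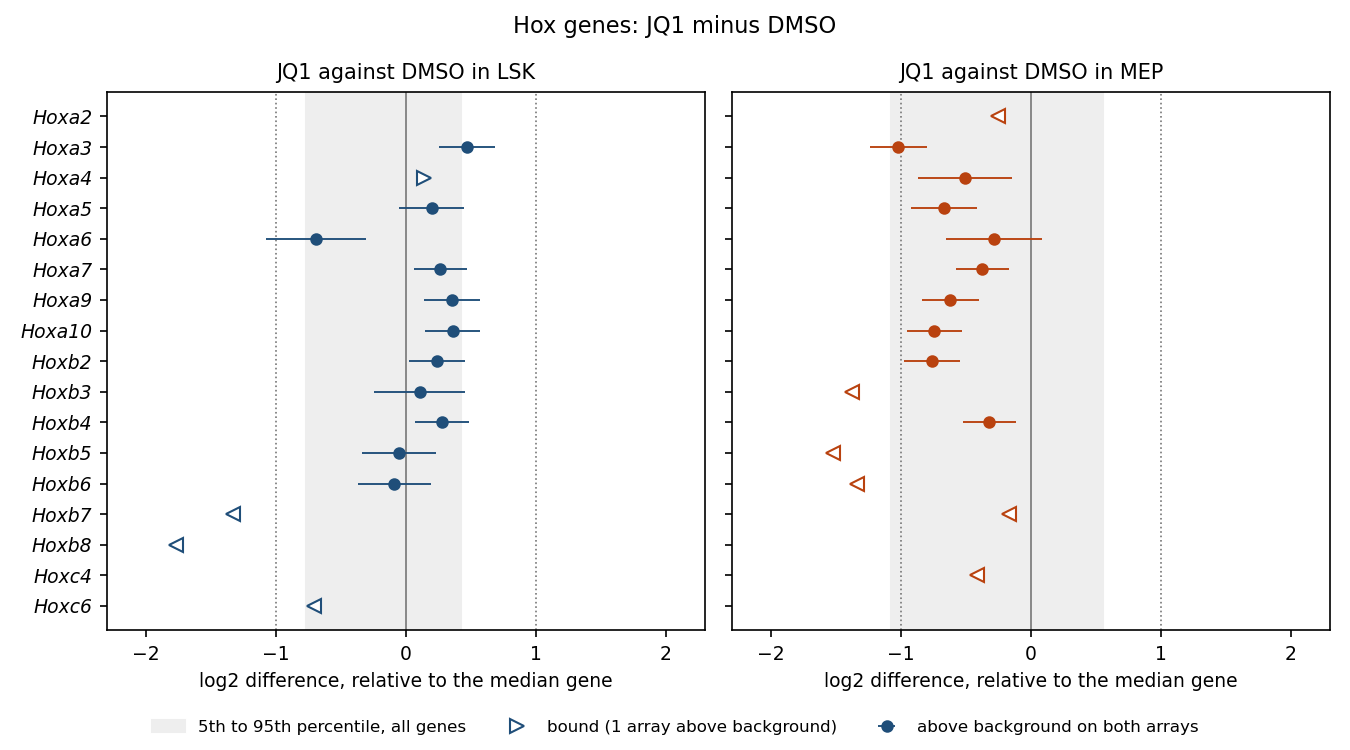
Log2 difference of JQ1 minus DMSO (horizontal axis, relative to the median gene) for the detected Hox genes that are reported in LSK (left) and MEP (right); points carry the software error, open triangles are bounds for genes detected on 1 array, the grey band spans the 5th to 95th percentile of all genes and dotted lines mark 2-fold. In LSK most points lie between 0 and 0.47, and in MEP the plotted points lie left of 0.

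In MEP cells too, B lineage transcripts were lower with JQ1: 7 of 9 measured markers were at least 2-fold lower (median -1.86), with summed levels of 87.8 and 34.5. Summed myeloid markers were 1548 with DMSO and 2440 with JQ1, summed MEP markers 331 and 454, and summed stromal and endothelial markers 27.4 and 42.8. Summed T and NK markers were 73.2 and 112, although of 9 measured 5 lay below the median gene and 4 above (median -0.23). The sums are not centred, and the median gene was 0.34 higher with JQ1 before centring. The part of these transcripts in the Hox values was not tested.

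The difference between cell types was asked next, without and with JQ1. Under DMSO, Hox levels in MEP were spread on both sides of those in LSK. Of 13 genes measured, 6 lay above and 7 below the median gene, with a median of -0.01, and 1 was at least 2-fold lower. Over 12407 genes, 5.68% were at least 2-fold higher and 4.32% at least 2-fold lower in MEP, and the median gene was 0.22 lower before centring. Of dim genes, 9.35% were 2-fold higher and 8.47% lower, and 52.9% lay above and 47.1% below the median. The gene past 2-fold was Hoxb7, 2.09-fold lower (-1.06 ± 0.41), near its detection limit in MEP. Hoxb8 was at least 3.80-fold lower and Hoxc6 at least 1.82-fold lower; 17.3% of the 1644 genes detected on 1 of these arrays had a lower bound of 2-fold or more. Hoxb3 was 1.52-fold higher (0.60 ± 0.33), which came to -0.04 under normexp. Hoxa9 (-0.07), Hoxa10 (-0.01) and Hoxb2 (-0.05) differed by less than their software errors of 0.21 to 0.22, although the second Hoxa9 probe gave 0.69. Hoxa4 was at least 1.46-fold higher, and Hoxc4 at least 1.02-fold higher, a bound that exists only after centring. The remaining values were 0.24 (Hoxb4), 0.22 (Hoxb5), 0.17 (Hoxa5), 0.14 (Hoxa3), -0.30 (Hoxa7), -0.35 (Hoxb6) and -0.35 (Hoxa6), all within the SD of 0.49 between probes of a gene, and the sign of Hoxa3, Hoxa5 and Hoxb5 turned under another scaling. Summed B lineage markers were 266 in DMSO LSK and 87.8 in DMSO MEP, summed myeloid markers 2113 and 1548 (of 10 measured, 3 at least 2-fold higher in MEP, among them Camp at 3.84 and S100a9 at 3.81, and 2 lower, with 2 more bounds higher), and summed mast and basophil markers 317 and 43.1; their part in these values was not tested.

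Under JQ1 most measured Hox genes were lower in MEP. Of 10 genes measured, 8 were lower in MEP than in LSK relative to the median gene, with a median of -0.83, and 4 were at least 2-fold lower, while 4.01% of the 12262 genes measured, and 7.26% of the dim ones, were at least 2-fold lower. At least 2-fold higher were 3.94% of all genes and 6.98% of dim ones, and 56.7% of dim genes lay below the median and 43.3% above. The 4 genes were Hoxa3, 2.58-fold lower (-1.37 ± 0.22), Hoxa10, 2.18-fold (-1.12 ± 0.21), Hoxb2, 2.09-fold (-1.06 ± 0.22) and Hoxa9, 2.08-fold (-1.06 ± 0.22; second probe -1.25). Just short of 2-fold was Hoxa7, 1.94-fold lower (-0.95 ± 0.20), followed by Hoxa5 (-0.71 ± 0.26) and Hoxb4 (-0.37 ± 0.20). All of these but Hoxb4 exceeded both the SD of 0.37 between probes of a gene and the 0.55 of dim genes. Hoxa4 (-0.11, which turned sign under normexp and quantile normalization) and Hoxa6 (0.04) differed by less than their software errors.

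Bounds lay in the same direction: Hoxb6 was at least 3.05-fold, Hoxb5 at least 2.40-fold, Hoxb3 at least 1.86-fold and Hoxa2 (after centring only) at least 1.05-fold lower in MEP, where 22.5% of the 1244 genes detected on 1 of these arrays had a lower bound of 2-fold or more. The DMSO MEP array has no part in this comparison. How many genes passed 2-fold depended on the scaling: 0 under normexp and 2 under quantile normalization or without centring, with Hox medians of -0.53, -0.71 and -0.76. Among other cells, summed B lineage markers were 56.5 in JQ1 LSK and 34.5 in JQ1 MEP, summed myeloid markers 1370 and 2440, and summed mast and basophil markers 268 and 45, with Mcpt4 at -7.87; their part in the Hox values was not tested.

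**Figure D4:**
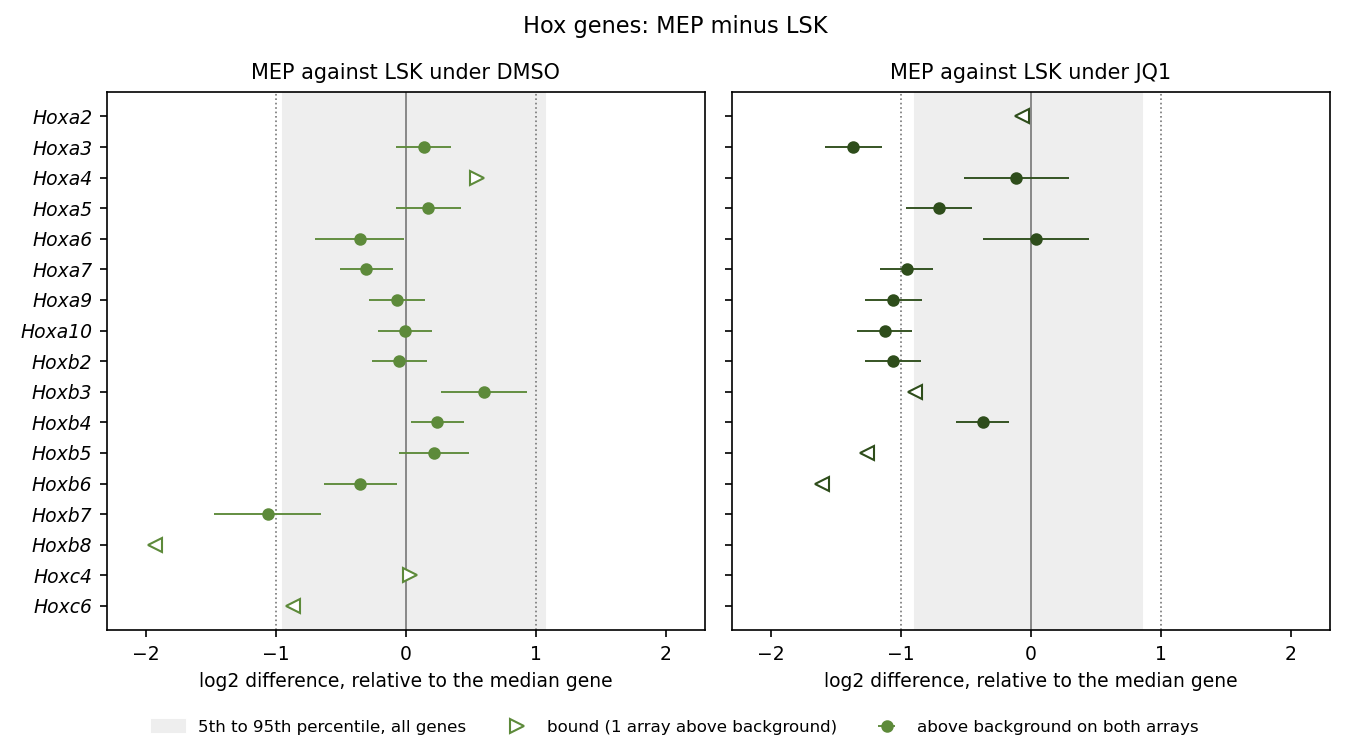
Log2 difference of MEP minus LSK (horizontal axis, relative to the median gene) for the detected Hox genes that are reported under DMSO (left) and JQ1 (right), with software errors as bars, open triangles for bounds, the grey band for the 5th to 95th percentile of all genes and dotted lines at 2-fold. Under DMSO the measured genes scatter around 0; under JQ1 Hoxa3, Hoxa10, Hoxb2 and Hoxa9 lie past -1.

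Placed side by side, the 4 arrays gave a shared order. For 7 of the 9 Hox genes detected on every array (Hoxa3, Hoxa5, Hoxa7, Hoxa9, Hoxa10, Hoxb2 and Hoxb4), JQ1 LSK was the highest array and JQ1 MEP the lowest. That order was held by 5.83% of the 12016 genes detected on all arrays, and by 7.73% of the dim ones. Leaving out the DMSO MEP array, the same 7 genes had JQ1 LSK highest and JQ1 MEP lowest of 3 arrays, an order held by 16.5% of all genes. A gene with the order on 4 arrays keeps it when an array between the extremes is dropped. The count therefore could not fall, and it is no check of the order. On all 4 arrays the count was 7 of 9 under normexp, quantile normalization, the authors' deposited table and the mean over probes, and 6 of 9 without centring. Hox genes of 1 cluster are neighbours and the 7 are not independent of each other; this order was noticed in the data and has no test.

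The difference of the JQ1 values between MEP and LSK puts a size on it. Over the 9 genes it had a median of -0.87 (MEP minus LSK) and was negative in 7, against a median of 0.01 and 5906 negative values over 12016 genes. These 7 are the genes of the shared order, which all but fixes a negative value, so their number is no separate support. The difference was at most -1 for 3 of the 9 Hox genes and for 5.83% of all genes. The 2 JQ1 comparisons share no array; the comparisons between cell types share arrays with both of them and are the same 4 readings arranged another way.

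**Figure D5:**
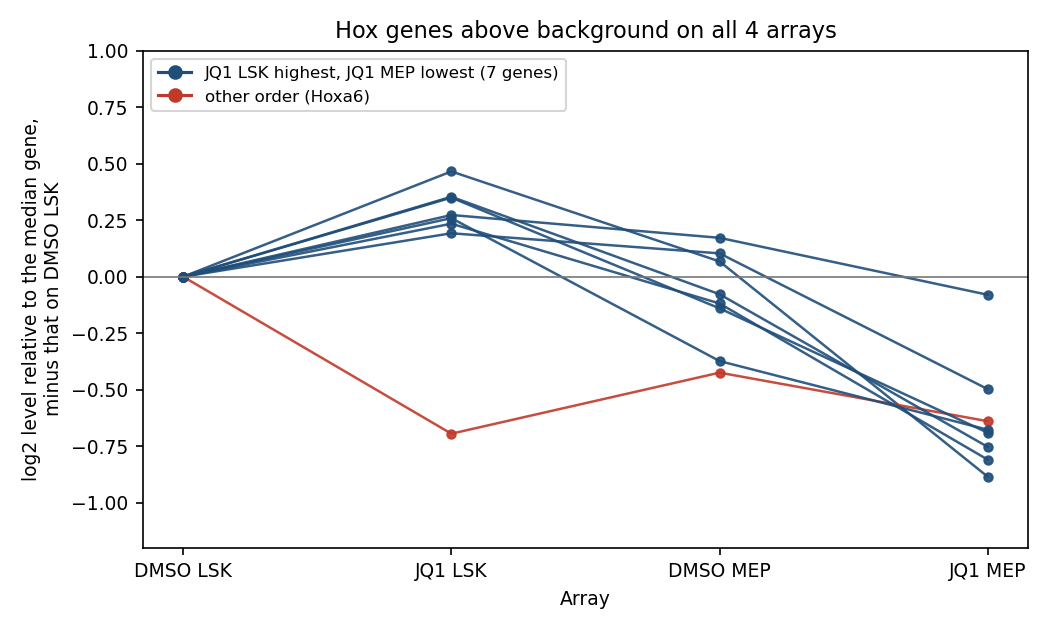
Log2 level relative to the median gene on each array, minus the level on DMSO LSK (vertical axis), for Hox genes detected on all 4 arrays (arrays on the horizontal axis; lines join the points of 1 gene and show no time course). The 7 blue genes are highest on JQ1 LSK and lowest on JQ1 MEP; Hoxa6, in red, is lowest on JQ1 LSK.

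Genes that work with or upstream of the Hox genes were read from lists. Hox proteins bind DNA with partners of the TALE class, and 9 of the 11 listed partners were measured in each comparison; none of the measured ones differed by 2-fold in any. Pknox2 was detected on JQ1 MEP only, which sets it at least 2-fold higher with JQ1 in MEP as a bound. Their medians were 0.15 (JQ1 in LSK), 0.04 (JQ1 in MEP), -0.05 (MEP against LSK, DMSO) and -0.26 (MEP against LSK, JQ1), those of JQ1 in MEP and of the DMSO comparison turning sign under other settings. Meis1, the partner of Hoxa9 in leukaemia, gave 0.55, 0.04, -0.04 and -0.55 in these comparisons, and Pbx3 gave 0.45, 0.36, -0.02 and -0.12. Hoxa9 itself gave 0.36, -0.62, -0.07 and -1.06, so the values of the pair differ most for JQ1 in MEP.

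The MLL complex and the H3K79 methylation machinery, which sustain Hox transcription, were measured at 15 of 15 listed genes present on the array. None of them differed by 2-fold in any comparison, and the list medians lay between 0.00 and 0.06. Men1, the MLL cofactor menin, gave -0.02 (JQ1 in LSK), 0.18 (JQ1 in MEP), -0.31 (MEP against LSK, DMSO) and -0.12 (MEP against LSK, JQ1), and Dot1l, the H3K79 methyltransferase, gave 0.02, -0.56, 0.68 and 0.08. Upstream regulators of Hox genes, including retinoic acid receptors, Polycomb subunits, demethylases and Ctcf, were measured at 11 of 15 genes, also with none past 2-fold and medians from -0.03 to 0.09.

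Of 15 genes named as targets of HOXA9 and MEIS1, 13 were measured. With JQ1 in LSK their median was 0.12 and 1 was at least 2-fold lower (3.22% of all genes were), Id2 (-1.18), an inhibitor of differentiation factors. With JQ1 in MEP the median was -0.29 (0.05 without centring) and 2 were at least 2-fold lower (5.77% of all genes), Mef2c (-1.19) and the survival gene Bcl2 (-1.0). Between cell types, Flt3, a receptor of early progenitors, was lower in MEP, with -1.71 under DMSO and -1.87 under JQ1, and Trib2 was higher by 2.72 and 2.47, where 5.68% and 3.94% of all genes were at least 2-fold higher. Under JQ1, 4 of the 13 were at least 2-fold lower in MEP, namely Flt3, Cd34 (-1.53), Erg (-1.34) and Sox4 (-1.27), against 1 under DMSO, with 4.01% and 4.32% of all genes. Cdk6 (0.28, 0.05, 0.06 and -0.18 in the 4 comparisons) and Myb (0.18, 0.10, 0.08 and 0.00) stayed within 0.28 of the median gene. Several of these genes also mark LSK cells: the list of LSK markers itself had medians of -0.68 under DMSO and -1.53 under JQ1 in MEP against LSK.

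Homeobox genes that lie outside the clusters, most of them of the same class, gave a comparison within the family. Of 16 such genes, 7 or 8 were measured, with medians of -0.06 (JQ1 in LSK), -0.39 (JQ1 in MEP), -0.27 (MEP against LSK, DMSO) and -0.54 (MEP against LSK, JQ1). The median for JQ1 in MEP was -0.018 under quantile normalization and -0.057 without centring, and that for JQ1 in LSK turned to 0.03 under quantile normalization. None of those measured passed 2-fold with JQ1. Between cell types only Nkx2-3 did, with -1.33 under DMSO and -2.03 under JQ1 in MEP against LSK.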

How the data were processed

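RNA from 4 sorted samples (20 ng each, Cy3) was read on 1 slide. Per the file headers, the authors used Agilent Feature Extraction 10.7.1.1 on the scans of array design 028005 (protocol GE1_107_Sep09). The deposited scanner files give processed signals and their errors as an intensity, after background subtraction and detrending, and marks for background, saturation and outliers. The authors' deposited table holds a linear ratio to the array's 75th percentile, made with a tool that the sources used here do not name.

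Signals were put on the log2 scale, averaged over spots of a probe without outlier marks and divided by the array's 75th percentile. Of 55681 probes, 28026 received 1 symbol through RefSeq and 27655 none. A gene took its brightest probe over the 4 arrays, and was measured when well above background on both arrays. Differences were centred on the median measured gene, and 2-fold was the threshold. No test was run, since each group has 1 array. Hox genes are named singly, except that the values of 1 of them are not reported here, although the counts include it; of other lists, the 2 highest and 2 lowest values per list and comparison could be named, plus Meis1, Pbx3, Kmt2a (not named on this array), Men1, Dot1l, Flt3, Cdk6 and Myb. Gata1, Erg, Sox4 and some list genes without a measured difference were named outside that rule. The members and lists were chosen with earlier results of these data known, and the centring and the array order were chosen after the data were seen. Alternatives were normexp (limma 3.58.1 in R 4.3.3, offset 50), run on median instead of mean signals because the files carry no mean-signal column, quantile normalization, no centring, the deposited table, the mean over probes, no background filter and a stricter one. The scripts (Python 3.11.15, pandas 2.3.3) were tested on simulated data. Probe positions in the files are on mm9, so only promoter coordinates (GRCm38.p6) are printed. The number of arrays limits the precision.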

Additional observations from a re-analysis of the deposited data

Results flagged for a closer look

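For 3 Hox genes the JQ1 difference had opposite signs in the LSK and MEP cells, each at least as large as the SD between probes of a gene. The difference of MEP minus LSK was -1.49 on the log2 scale for Hoxa3 (0.47 in LSK, -1.02 in MEP), -1.10 for Hoxa10 (0.36 and -0.74) and -0.98 for Hoxa9 (0.36 and -0.62). With 1 array per group this difference was not tested. For genes as dim as these the SD between probes was larger, 0.53 in LSK and 0.62 in MEP. None of the 3 LSK values above reached 0.53, while the second Hoxa9 probe gave 1.02 in LSK. Without centring the MEP values of Hoxa9 (-0.28) and Hoxa10 (-0.41) were also smaller than the SD of 0.51 between probes there. The signs held under normexp, quantile normalization and without centring, but the sizes did not all hold. Under normexp the LSK values were 0.31 (Hoxa3), 0.34 (Hoxa10) and 0.19 (Hoxa9), below the SD of 0.35 between probes there. In MEP, Hoxa10 and Hoxa9 were at -0.46 and -0.40 under normexp and -0.49 and -0.26 under quantile normalization, short of 0.51. The SD was not computed under those scalings. The DMSO MEP array behind each MEP value stood apart from the other arrays.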

How the results depend on the processing

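No paired analysis was possible because the groups share a single replicate number, each having 1 array. The number of detected Hox genes was 18 with the brightest probe alone and 25 with the looser mark. Median differences of the measured Hox genes kept their direction under normexp, quantile normalization, no centring and the deposited table in all 4 comparisons; that of MEP against LSK under DMSO, near 0, became 0.07 with the mean over probes and 0.06 with the stricter filter. With no background filter, which takes in all 39 genes, the medians were -0.33 (JQ1 in LSK), -0.039 (JQ1 in MEP), -0.51 (MEP against LSK, DMSO) and -0.0062 (MEP against LSK, JQ1). In the same order, 5, 5, 5 and 9 of 39 genes were then at least 2-fold lower, 0, 3, 1 and 3 higher, and 24, 20, 25 and 23 below the median. For JQ1 in LSK, 5 genes lay below the median under normexp and 1 under quantile normalization. For JQ1 in MEP, 0 genes were 2-fold lower under normexp, quantile normalization, no centring or the mean over probes. For MEP against LSK under DMSO, 0 were under normexp or the stricter filter. For MEP against LSK under JQ1, 0 were under normexp and 2 under quantile normalization or no centring. Bounds of 2-fold or more numbered 0 in every comparison under normexp, and under quantile normalization 0 for JQ1 in MEP and 2 for MEP against LSK under DMSO, where no centring also gave 2. The cause was not tested. Normexp adds an offset that shrinks low signals by construction, and it was run on median signals. The part of each in the lost calls and bounds was not tested. No called value changed sign. Signals near the detection limit, those of Hoxa2, Hoxa4, Hoxa6, Hoxb7 and the Hoxc genes, are the least certain.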

Other observations

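The chromosomal neighbours of the clusters were read as well. Of 32 non-Hox genes that RefSeq places inside the clusters, 6 had probes and 2 were above background on at least 1 array. Haglr, a non-coding RNA inside the Hoxd cluster, was above background on all 4 arrays, with signals of 83.1 with DMSO and 77.8 with JQ1 in LSK, and 113 and 87.8 in MEP, while none of the 9 Hoxd genes was detected. Relative to the median gene it differed by -0.38 with JQ1 in LSK, -0.21 with JQ1 in MEP and between MEP and LSK by 0.02 under DMSO and 0.18 with JQ1, so none of its differences reached 2-fold. Hoxa11os, an antisense transcript at Hoxa11, was above background on DMSO MEP only, at 35.2, where Hoxa11 itself was not.

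Of 24 genes flanking the clusters, 22 had probes and 20 were detected. The order found for 7 Hox genes, JQ1 LSK highest and JQ1 MEP lowest, was also held by Snx10 and Skap2, the near neighbours of the Hoxa cluster on its 3′ side, and by Smug1 beside the Hoxc cluster. Snx10 gave 0.25 (JQ1 in LSK), -0.48 (JQ1 in MEP), 0.15 (MEP against LSK, DMSO) and -0.59 (MEP against LSK, JQ1), and Skap2 gave 0.19, -0.12, -0.23 and -0.55. Smug1, a DNA repair glycosylase, gave 0.38, -0.10, -0.16 and -0.65. Evx1 and Evx2, the homeobox genes at the 5′ ends of the Hoxa and Hoxd clusters, were not above background on any array. Skap1, which flanks the Hoxb cluster, gave -1.27 (DMSO) and -0.83 (JQ1) in MEP against LSK. These neighbours were named after their values were seen.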
